A study of Mus musculus with 10 samples.

Results

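The genes described here encode the splicing machinery and the RNA-binding proteins that steer it: the Srsf genes, the hnRNP genes, the subunits of SF3a and SF3b, the proteins of the small nuclear ribonucleoproteins (snRNPs), and the muscleblind (Mbnl), Rbfox and Celf genes. They were chosen by symbol alone, and 65 of the 21098 genes in the deposited count table matched. The samples were gastrocnemius muscles (GAS) of wild-type (WT) male C57BL/6J mice with diet-induced obesity (DIO). The mice were given the high-fat diet (HFD) D12492i from 9 weeks of age, and after 9 weeks on it they received weekly subcutaneous injections for 14 weeks. The labels give their age as 30 weeks, which is less than these times add up to. One arm, labelled RES-010 and called ASO here, received the anti-miR-22 antisense oligonucleotide at 10 mg/kg, and the other, CTRL, received matched volumes of saline. Both arms were obese and on the HFD, so no lean or untreated muscle was compared, and each arm had 5 libraries of stranded polyA RNA.

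Splicing is carried out by the spliceosome, in which the U1 snRNP marks the start of an intron and the U2 snRNP, with its SF3a and SF3b subunits, marks the branch point near its end. SR proteins (the Srsf genes) mostly promote the use of the exons they bind, and many hnRNPs oppose them or act on other steps of RNA handling. In muscle, Mbnl, Rbfox and Celf proteins set the switch from fetal to adult exon choices, and the loss of free MBNL protein on expanded repeats, with raised CELF1, is known from myotonic dystrophy. Many SR protein and hnRNP genes also carry a so-called poison exon, whose inclusion sends their own mRNA to nonsense-mediated decay (NMD).

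The ASO was directed against miR-22-3p, so its sequence and the matches to it in these genes are shown first. The mature miRNA of the RefSeq annotation (GRCm38.p6, chr11:75463772-75463793, plus strand) is printed with its seed, bases 2 to 8, in capitals. Below it are matches to the seed in the 3′UTRs of the genes described here, a stretch of 30 bases for each of 7 genes, with the heptamer GGCAGCT in capitals.
miR-22-3p: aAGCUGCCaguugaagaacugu
Celf1: ttgagaccctggagcGGCAGCTgcctttct
Celf2: agctggccaacagcgGGCAGCTaaaaacca
Hnrnpf: tatagatactgggcaGGCAGCTagtatgca
Hnrnpr: tcccagggcccacatGGCAGCTcacagcca
Hnrnpul2: gttgtggggttaggaGGCAGCTcagttggg
Sf3b1: ctgtcaggagtgctaGGCAGCTtgtgcttc
Srsf10: ttgtttaatgttatgGGCAGCTaccaattt

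The search covered the sense strand of the 3′UTR of each gene's Ensembl canonical transcript on GRCm39. The heptamers printed lie at chr2:90849162-90849168 (Celf1, plus strand), chr2:6546152-6546158 (Celf2, minus), chr6:117904286-117904292 (Hnrnpf, plus), chr4:136085017-136085023 (Hnrnpr, plus), chr19:8810029-8810035 (Hnrnpul2, plus), chr1:55025205-55025211 (Sf3b1, minus) and chr4:135591547-135591553 (Srsf10, plus). In Celf2, Hnrnpf and Srsf10 the heptamer is followed by an A. A match was found in 8 of the 65 genes (12.3%), beside 14.0% of the 20858 protein-coding genes with a 3′UTR and 17.9% of 7769 tested ones. A match is a description of the sequence and no measure of binding.

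Counts were deposited per segment, a stretch of at most 500 bp at the 3′ end of an annotated transcript, with a gene's level taken as the sum over its segments. Totals ranged from 1606909 to 2116720 counts per library in CTRL and from 2239186 to 2632560 with the ASO, so every treated library was deeper. The 65 genes have 264 segments, of which 111 have no base of their own and hold 40 counts in all. Celf1, Hnrnpa1 and Snrpc have no unique base and Hnrnpf and Hnrnph1 have 1, so their counts of 0 to 6 over the 10 libraries say nothing of their expression. In all, 49 genes passed the filter on low counts and were tested. The 16 others had between 0 and 34 counts over all libraries: Celf1, Celf3, Celf4, Celf5, Celf6, Hnrnpa1, Hnrnpf, Hnrnph1, Mbnl3, Rbfox3, Snrpb2, Snrpc, Snrpd2, Snrpn, Srsf12 and Srsf19. miR-22 itself is not among the counted genes and was not analysed here, so the labels were not checked against it. The sample titles number 5 mice per arm without naming the animals, and p-values measure the spread between these samples.

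With the ASO, 9 of the 49 tested genes were lower and 5 were higher. The lower ones were led by the muscle splicing regulators Mbnl2, Rbfox1 and Mbnl1 and by Hnrnpk, and the higher ones, Snrpg, Sf3a3, Srsf3, Sf3b5 and Hnrnpul1, moved by less than 1 on the log2 scale. The threshold was an adjusted p of 0.05 in the quasi-likelihood test of edgeR, adjusted by Benjamini-Hochberg over 7813 genes. Over all 7813 genes, 11.8% were higher and 17.4% lower, so shares of 10.2% higher and 18.4% lower among the splicing genes lay near the background. The median log2 fold change (ASO over CTRL) of the 49 was −0.00015, beside −0.029 over all genes tested, and 24 of the 49 had an unadjusted p under 0.05. In 7 of the 49 every ASO library was below every CTRL library (13.4% of all genes tested), and in 4 every ASO library was above (7.97%). The balance of calls moved with the scaling: 35.7% of the calls were higher with TMM, 7.14% when libraries were scaled to total counts, 38.5% with RLE size factors and 57.9% with upper-quartile scaling. In DESeq2, which also tested more genes, 46.7% of the calls were higher. Scaling to total counts moved the median of all genes by −0.17 on the log2 scale.

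**Figure D1:**
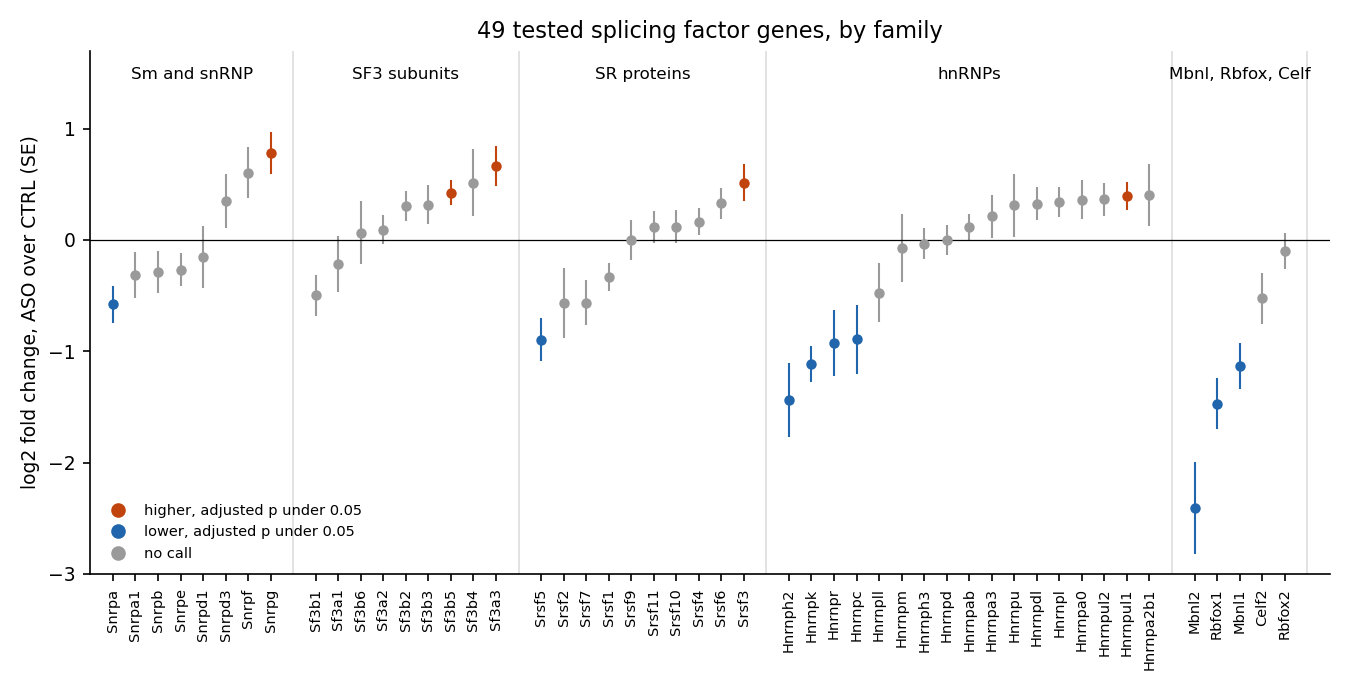
Log2 fold change (ASO over CTRL, y axis) of the 49 tested genes, ordered by value within 5 families on the x axis, with bars for the standard error and colour for the call at an adjusted p of 0.05. With all segments summed, the 5 tested Mbnl, Rbfox and Celf genes lie below 0, from −2.41 for Mbnl2 to −0.10 for Rbfox2. The other families spread to both sides.

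Of the Mbnl, Rbfox and Celf genes, 5 of 12 were tested, and 3 were lower (60%, beside 17.4% of all genes tested) and none higher. These 3 calls could be followed by segment position only in part. On the most distal counted segment of each gene alone, 2 genes were tested, Celf2 and Rbfox2, with a median log2 fold change of 0.12. Neither was called there or with all segments summed. Mbnl1, Mbnl2 and Rbfox1 had too few counts on that segment, so this fit could not show whether their calls hold. Without segments 1000 bp or more upstream of the most distal one, 3 were tested, Mbnl1, Mbnl2 and Rbfox2. Of these, Mbnl2 was lower (median of the 3, −0.47). Mbnl2, which sets adult exon choices together with Mbnl1, was at 55.9, 73.6, 77.3, 80.0 and 87.5 CPM (counts scaled per library to a common total) in CTRL and at 5.27, 7.49, 9.11, 11.8 and 36.3 CPM with the ASO. The groups did not overlap, although 1 ASO library stood well above the other 4. The log2 fold change was −2.41 (SE 0.41, adjusted p = 0.0014), 5.30-fold lower. Nearly all of these counts come from a segment at chr14:120667611-120668110 that lies outside the canonical transcript, 999 bp upstream of the most distal one and so just inside the limit of 1000 bp used below.

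Mbnl1, the main MBNL of adult muscle, was at 903, 928, 1119, 1217 and 1273 CPM in CTRL and at 299.5, 441, 490.4, 619 and 631 CPM with the ASO. Every ASO library was below every CTRL library, with a log2 fold change of −1.13 (SE 0.20, adjusted p = 0.00184). Mbnl1 had the highest mean level among the 49 genes on the CPM scale. When segments that lie 1000 bp or more upstream of the most distal one were left out, an alternative added after the data were seen, its value was −0.47 (adjusted p = 0.136).

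Rbfox1, a neuron- and muscle-enriched factor that binds GCAUG, was at 85.6, 93.2, 108, 123 and 172 CPM in CTRL and at 26.5, 36.1, 44.0, 47.0 and 55.6 CPM with the ASO. The groups were apart, and the log2 fold change was −1.47 (SE 0.23, adjusted p = 0.000838). Nearly all of its counts, 99.3%, come from segments 1000 bp or more upstream of its most distal one.

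Rbfox2 and Celf2 did not pass the test when their segments were summed. Rbfox2, the more widely expressed relative of Rbfox1, was at 126, 154, 167, 183 and 216 CPM in CTRL and at 137, 139, 151, 160 and 202 CPM with the ASO, which overlapped throughout (log2 fold change −0.10, SE 0.17, adjusted p = 0.681). Celf2, which opposes MBNL proteins on some exons, was at 176, 192, 211, 229 and 230.0 CPM in CTRL and at 87.0, 104, 127, 200.2 and 204 CPM with the ASO. Here 3 ASO libraries lay below all CTRL libraries and 2 within their range (−0.52, SE 0.23, adjusted p = 0.102). Leaving out ASO replicate 2 gave −0.66 with an adjusted p of 0.0446. The counts of Mbnl3, Rbfox3 and Celf1 were too few for a level.

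Among the hnRNPs, 17 of 20 were tested, 4 were lower and 1 was higher, with a median log2 fold change of 0.12 (−0.058 with total-count scaling). Hnrnpk, a poly(C)-binding protein with roles from transcription to translation, was at 275, 287, 333, 342 and 363 CPM in CTRL and at 106, 132, 161, 169.6 and 171 CPM with the ASO. The groups lay far apart (−1.11, SE 0.16, adjusted p = 0.000514), and the gene had the smallest adjusted p of the 49. Hnrnph2, a G-run-binding protein, was at 13.2, 14.5, 17.0, 18.4 and 22.2 CPM in CTRL and at 3.35, 4.20, 4.68, 6.63 and 12.2 CPM with the ASO, again without overlap (−1.44, SE 0.33, adjusted p = 0.00712).

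Hnrnpr and Hnrnpc were called at low counts. Hnrnpr, a relative of Syncrip, was at 12.5, 18.1, 18.7, 20.5 and 22.9 CPM in CTRL and at 4.79, 6.74, 10.5, 11.6 and 15.0 CPM with the ASO (−0.92, SE 0.30, adjusted p = 0.0335). Hnrnpc, which binds uridine tracts in introns, was at 10.6, 10.8, 13.9, 17.6 and 18.7 CPM in CTRL and at 3.78, 6.08, 6.71, 10.8 and 11.0 CPM with the ASO (−0.89, SE 0.31, adjusted p = 0.0478). The tested segment of Hnrnpr belongs to an NMD transcript, with 392 of 500 bp in an intron of the canonical one and 29974 bp upstream, which went from 15.4 ± 5.17 CPM (SD, n = 5) in CTRL to 3.34 ± 1.69 CPM with the ASO (−2.18). Its most distal segment, too low to test, was at 2.84 ± 2.40 CPM in CTRL and 6.30 ± 3.59 CPM with the ASO. The groups overlapped for both genes, and each call was lost in 6 of the 10 fits that left out a library: for Hnrnpr without ASO replicates 1, 2 or 3 or CTRL replicates 1, 4 or 5 (adjusted p up to 0.0769), and for Hnrnpc without ASO replicates 1, 3 or 5 or CTRL replicates 1, 2 or 4 (up to 0.118).

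Hnrnpul1 was the hnRNP called higher in this fit. It was at 89.4, 93.1, 94.3, 100.5 and 104 CPM in CTRL and at 108, 119, 119, 130.5 and 157 CPM with the ASO, without overlap (0.40, SE 0.13, adjusted p = 0.0347). The call was lost without ASO replicate 3 or CTRL replicates 1, 4 or 5 (adjusted p up to 0.0770). Hnrnpab, a single-strand RNA-binding protein and the second most highly counted gene without a call, was at 234, 238, 242, 254 and 278 CPM in CTRL and at 254, 255, 259, 269 and 314 CPM with the ASO (0.12, SE 0.12, adjusted p = 0.482). Its segments overlap exons of Phykpl on the other strand. The 11 further hnRNPs, Hnrnpa0, Hnrnpa2b1, Hnrnpa3, Hnrnpd, Hnrnpdl, Hnrnph3, Hnrnpl, Hnrnpll, Hnrnpm, Hnrnpu and Hnrnpul2, had log2 fold changes between −0.47 and 0.40 and no call.

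Of 12 Srsf genes, 10 were tested, with 1 lower, 1 higher and a median log2 fold change of 0.058 (−0.12 with total-count scaling). Srsf5, an SR protein known to respond to insulin in cultured cells, was at 107, 122, 130.4, 136 and 171 CPM in CTRL and at 48.9, 54.0, 83.5, 84.2 and 87.7 CPM with the ASO. The groups did not overlap (−0.90, SE 0.20, adjusted p = 0.00506). The only counted segment of Srsf5, at chr12:80993905-80994302, belongs to an NMD transcript and has 294 of its 398 bp in an intron of the canonical one, with the other 104 bp in its coding exons, so reads of the coding mRNA and of other forms are not separated. It also shares 43 bp with exons of Gm20337 on the other strand.

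Srsf3, the smallest SR protein, was at 49.5, 63.3, 63.5, 73.9 and 74.4 CPM in CTRL and at 69.1, 84.3, 95.5, 101 and 113 CPM with the ASO (0.52, SE 0.16, adjusted p = 0.0318). Only the lowest ASO library fell within the CTRL range. The call was lost without ASO replicates 3 or 5 or CTRL replicates 2, 3 or 5 (adjusted p up to 0.0700). Srsf6, the most highly counted gene without a call, was at 283, 308, 325, 361 and 402 CPM in CTRL and at 383, 391, 394, 448 and 494 CPM with the ASO (0.33, SE 0.14, adjusted p = 0.0911). It passed the threshold in DESeq2 (0.37, adjusted p = 0.0174) and with upper-quartile scaling (0.42, adjusted p = 0.0339).

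Just outside the threshold were Srsf7 (−0.57, adjusted p = 0.0513) and Srsf1 (−0.33, adjusted p = 0.0607). Srsf1, the prototype of the family, was at 178, 190.3, 194, 205 and 212 CPM in CTRL and at 126, 148, 162, 168 and 173 CPM with the ASO, so that the groups did not overlap although the gene had no call. It passed with total-count scaling (−0.50, adjusted p = 0.0105) and with a filter of 10 counts in every library (−0.36, adjusted p = 0.0387). The other Srsf genes tested, Srsf2, Srsf4, Srsf9, Srsf10 and Srsf11, lay between −0.57 and 0.16 with no call.

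**Figure D2:**
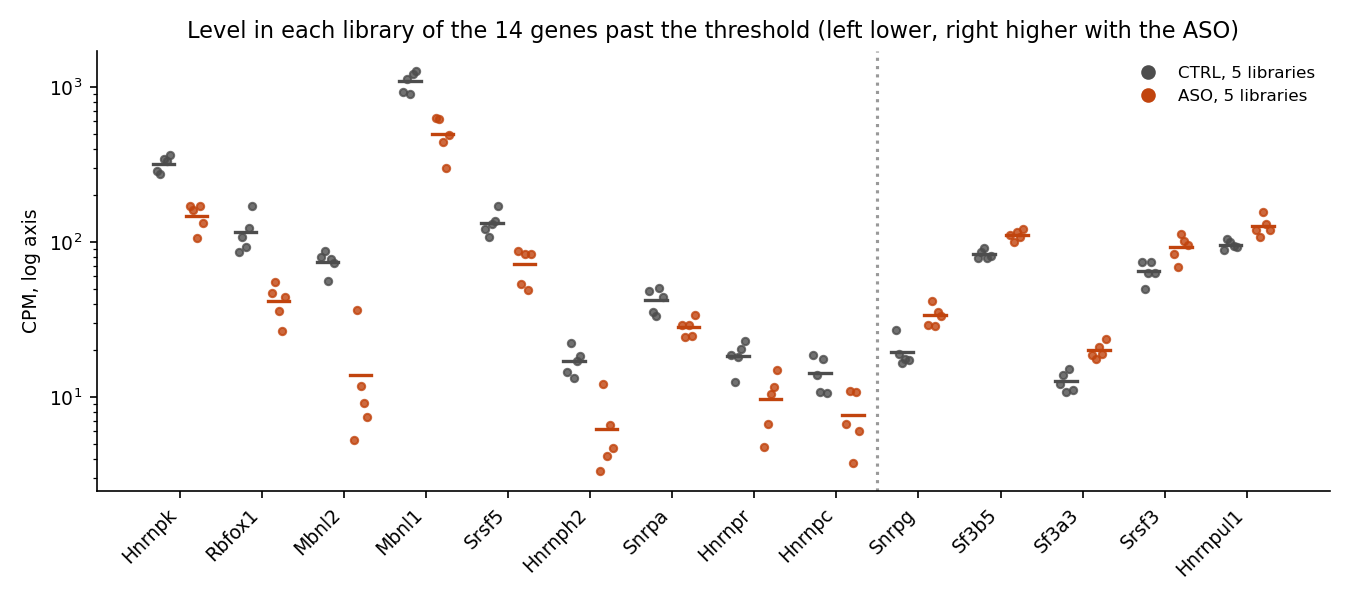
CPM on a log axis in each of the 10 libraries for the 9 genes called lower (left of the dotted line) and the 5 called higher (right), with points for libraries and bars for group means. The groups are apart for Hnrnpk, Rbfox1, Mbnl2, Mbnl1, Srsf5 and Hnrnph2 on the left and for Snrpg, Sf3b5, Sf3a3 and Hnrnpul1 on the right.

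The Sm and snRNP proteins form the ring and the specific subunits of the snRNPs. Of 12 genes, 8 were tested, with 1 higher, 1 lower and a median log2 fold change of −0.21. Snrpg, the Sm ring protein SmG, was at 16.7, 17.3, 17.6, 19.0 and 27.1 CPM in CTRL and at 28.5, 29.2, 33.2, 35.6 and 41.7 CPM with the ASO, without overlap (0.78, SE 0.19, adjusted p = 0.00809). Snrpa, a protein of the U1 snRNP, was at 33.3, 35.2, 44.0, 48.7 and 50.4 CPM in CTRL and at 24.5, 24.9, 29.2, 29.4 and 33.7 CPM with the ASO, where only the lowest CTRL and the highest ASO library crossed (−0.58, SE 0.17, adjusted p = 0.0198). All counts of Snrpa come from a segment of an NMD transcript with 433 of 500 bp in an intron of the canonical one, 4707 bp upstream of the most distal segment, and the call was lost without CTRL replicate 4 (adjusted p = 0.0561). Snrpf was just outside the threshold (0.60, adjusted p = 0.0623), and its counted segment lies wholly over exons of Ccdc38 on the other strand. Snrpa1, Snrpb, Snrpd1, Snrpd3 and Snrpe had values between −0.32 and 0.35 and no call.

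All 9 SF3 genes were tested, 2 were higher (22.2%, beside 11.8% of all genes tested) and none lower, with a median log2 fold change of 0.31. With total-count scaling the median was 0.13, with none higher and 1 lower. On the most distal counted segment alone it was 0.085 with no call. The most distal segments of all genes, tested one by one as below, had a median of 0.26, with 21.5% higher. Sf3a3, the SF3a subunit that joins U2 to the spliceosome, was at 10.8, 11.1, 12.2, 13.9 and 15.2 CPM in CTRL and at 17.7, 18.7, 19.1, 21.0 and 23.9 CPM with the ASO (0.66, SE 0.18, adjusted p = 0.0170). Sf3b5, a small SF3b subunit, was at 78.6, 79.0, 80.8, 86.1 and 91.2 CPM in CTRL and at 100.8, 107, 111, 117 and 122 CPM with the ASO (0.42, SE 0.11, adjusted p = 0.0140). The groups did not overlap for either gene. With total-count scaling neither passed, at 0.49 (adjusted p = 0.0514) for Sf3a3 and 0.24 (adjusted p = 0.121) for Sf3b5. Sf3b1, the largest SF3b subunit, which holds the branch point, was the lowest of the family at −0.50 (adjusted p = 0.0602), and Sf3a1, Sf3a2, Sf3b2, Sf3b3, Sf3b4 and Sf3b6 lay between −0.22 and 0.51 without a call.

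Genes around the splicing factors moved to both sides as well. Their shares stand beside 11.8% higher and 17.4% lower over all genes tested. Of 57 tested genes of a list of other core spliceosome components, 9 were higher (15.8%) and 8 lower (14%), with a median log2 fold change of 0.10. Among them were the higher Sugp1 (0.99, adjusted p = 0.00116) and the helicases Dhx38 (1.05, adjusted p = 0.00269) and Dhx16 (0.98, adjusted p = 0.00274). Other splicing regulators were lower more often than higher, 12 against 3 of 48 tested, or 25% against 17.4% of all genes, with a median of −0.028. They were led by Zranb2 (−1.67, adjusted p = 0.00036), Tardbp (−0.86, adjusted p = 0.00357), Rbm38 (−0.88, adjusted p = 0.00554) and Fxr1 (−0.98, adjusted p = 0.00567). Of 13 tested snRNP assembly genes, 3 were higher (23.1%) and 1 lower (7.69%). These were Gemin5 (0.76) of the SMN complex, Phax (0.70), the snRNA export adaptor, and Coprs (0.98) against Wdr77 (−1.08) of the methylosome. Of 20 tested cleavage and polyadenylation genes, 3 were higher (15%), among them Cpsf1 (0.52) and Sympk (0.67). Another 2 were lower (10%), the poly(A) polymerases Papola (−0.71) and Papolg (−0.86).

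The direction of change moved with the position of the counted segments. Each of 10652 segments was therefore tested on its own, at the scaling of the gene-level fit. Over all of them, 13.7% were higher and 25.5% lower. Of the 91 tested segments of the splicing genes, 11 were higher and 29 lower. The 30 that were the most distal segment listed for their gene held 10 of the higher calls and none of the lower ones, with a median log2 fold change of 0.39. Among the 19 that lay less than 1000 bp upstream, none were higher and 6 were lower (median −0.32), and among the 42 that lay further upstream, 1 was higher and 23 lower (median −0.58). All tested segments showed the same order, with 21.5% higher and 4.74% lower among the most distal, 10.6% and 23.1% among those less than 1000 bp upstream, and 4.66% and 54.7% further upstream.

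A distal index was computed for each library from 1261 genes: the log2 ratio between the counts on a gene's most distal segment and those 1000 bp or more upstream, as a median. It was 1.43 ± 0.24 (SD, n = 5) with the ASO, from 1.18 to 1.77, and −0.037 ± 0.43 (SD, n = 5) in CTRL, from −0.59 to 0.43, with an exact permutation p = 0.00794 (two-sided), the smallest that 5 against 5 libraries allow. Every ASO library had the higher index, so the treatment and the position of the counted reads cannot be told apart in these libraries. The labels give RIN values only as above 7, and the part of RNA quality in the index was not tested.

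**Figure D3:**
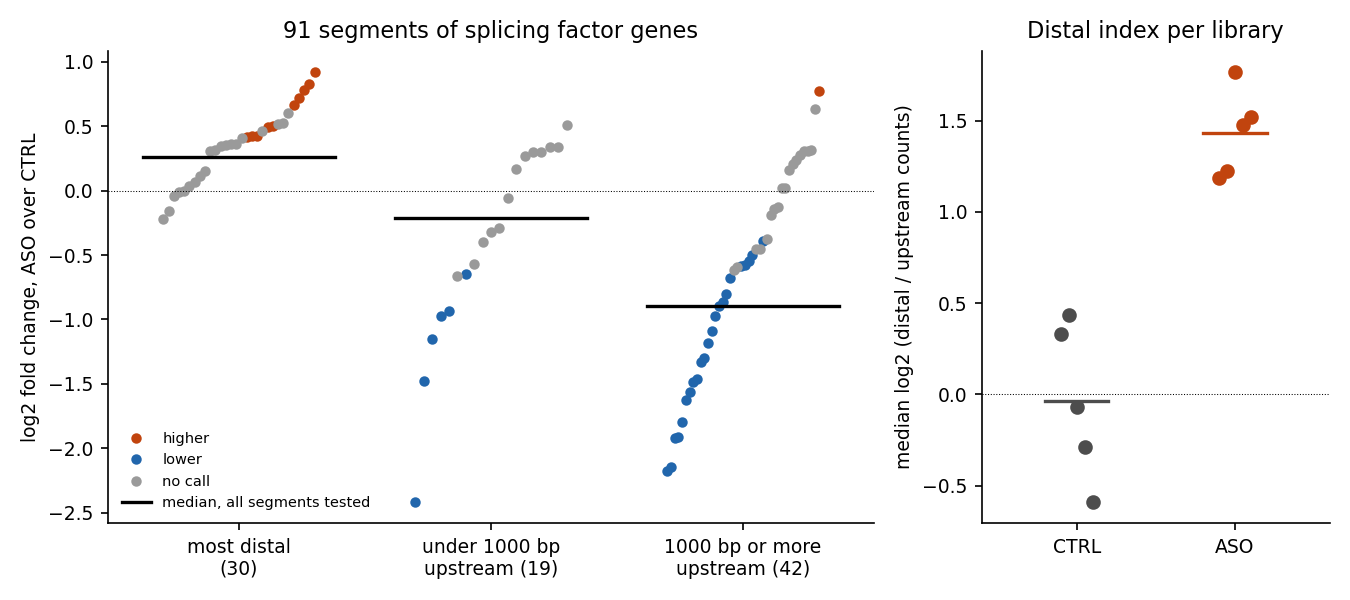
Left, log2 fold change (ASO over CTRL, y axis) of the 91 tested segments of splicing genes by position in the gene, with points coloured by call and black bars for the median of all tested segments at that position. Right, the distal index of each library, with bars for group means. Lower calls sit among upstream segments, and the ASO libraries, at 1.18 to 1.77, lie above the CTRL libraries, at −0.59 to 0.43.

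Of the 49 genes, 17 had at least 50% of their counts 1000 bp or more upstream of the most distal segment, and 6 of these were lower and none higher (median log2 fold change −0.33). Among the other 32, 3 were lower and 5 higher (median 0.12). This split was not made for all genes. By the number of counted segments, 18.5% of all genes with 1 were higher and 7.67% lower. Of all genes with several, 6.57% were higher and 25% lower. The 9 genes called lower had between 0 and 34.7% of their counts on the most distal segment, while Snrpg, Sf3b5 and Sf3a3 had 100% there. The counts of Srsf3 and Hnrnpul1 were spread, with 5.96% and 45.2% on the most distal segment. On its own, that segment of Hnrnpul1 went from 34.3 ± 3.95 CPM (SD, n = 5) in CTRL to 65.1 ± 9.14 CPM with the ASO. Its log2 fold change was 0.92 (adjusted p = 0.000511), while the segment 317 bp upstream was at −0.054 with no call. The usage of the 2 segments, tested as below, did not differ past the threshold (adjusted p = 0.153). Fits on the most distal counted segment of each gene alone, which rescale the libraries on those counts, left 1 higher and 3 lower of 39 tested: Hnrnpul1 (0.68, adjusted p = 0.00629) against Hnrnph2 (−1.69, adjusted p = 0.00889), Snrpa (−0.81, adjusted p = 0.00613) and Srsf5 (−1.14, adjusted p = 0.00373). For these 3 the most distal segment with counts itself lies 302, 4707 and 2979 bp upstream of the most distal one listed. The other 6 genes called lower, Hnrnpk, Mbnl1, Mbnl2, Rbfox1, Hnrnpr and Hnrnpc, had too few counts on that segment and were not tested there. In those fits Snrpg (0.56, adjusted p = 0.0530), Sf3a3 (0.44, adjusted p = 0.105), Sf3b5 (0.19, adjusted p = 0.292) and Srsf3 (0.22, adjusted p = 0.717) no longer passed.

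Segments of 1 gene were also compared with each other, which asks whether they moved by different amounts. The usage of segments differed in 7 of the 23 splicing genes with at least 2 tested segments (30.4%), beside 45.2% of 2272 such genes in all: Rbfox2, Hnrnpk, Mbnl1, Srsf4, Hnrnpd, Celf2 and Srsf1. The most distal tested segment had a higher fold change than the most upstream one in 19 of the 23 (82.6%), beside 88.9% of all.

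Rbfox2 had the smallest adjusted p for usage, 0.000896. Its most distal segment, at chr15:76963190-76963689, was at 73.0, 73.6, 74.5, 94.3 and 100.4 CPM in CTRL and at 102, 104, 112, 123 and 146 CPM with the ASO (log2 fold change 0.50, SE 0.16, adjusted p = 0.0250). The segment 1489 bp upstream went the other way, from 33.7, 52.8, 57.9, 71.3 and 84.3 CPM in CTRL to 21.5, 22.3, 23.4, 25.9 and 38.6 CPM with the ASO (−1.18, SE 0.25, adjusted p = 0.00227), and the one 4499 bp upstream was at −0.86 (adjusted p = 0.0375). The sum over the 3 segments, at −0.10, is thus made of parts that rose and parts that fell.

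Mbnl1 fell by less toward its distal end (adjusted p = 0.0210 for usage). Its 4 tested segments lie in the 3′UTR of the canonical transcript, the first of them with 84 bp in an intron, between chr3:60533717-60534216 and chr3:60536093-60536592. From the most upstream on, the log2 fold changes were −1.91 (SE 0.29), −1.79 (SE 0.21), −1.33 (SE 0.21) and −0.29 (SE 0.21). The last had no call: it was at 243, 260, 278, 328 and 372 CPM in CTRL and at 154, 195, 232, 310.3 and 322 CPM with the ASO, which overlapped. The most upstream one was at 155, 179.5, 204, 293 and 345 CPM in CTRL and at 28.6, 60.9, 70.7, 72.5 and 80.5 CPM with the ASO, far apart.

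Hnrnpk was lower on all 5 of its tested segments, from −2.15 (SE 0.29) at the most upstream to −0.67 (SE 0.15) and −0.93 (SE 0.16) at the 2 most distal (adjusted p = 0.0205 for usage). The 3 upstream segments belong to NMD transcripts and lie mostly in introns of the canonical one, and the other 2, in the 3′UTR, carried the difference too: the segment at chr13:58539151-58539650 was at 70.9, 72.6, 73.6, 79.1 and 80.4 CPM in CTRL and at 27.7, 35.1, 41.2, 44.7 and 48.5 CPM with the ASO. Its groups did not overlap. This gene kept a value of −1.12 (adjusted p = 0.00189) without its far upstream segments.

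In Celf2 the segments 7165, 5941 and 3736 bp upstream were lower (−1.63, −1.56 and −1.30), and the one 2175 bp upstream, the most distal with counts, was at 0.21 with no call (adjusted p = 0.0410 for usage). The third of these went from 98.2 ± 17.3 CPM (SD, n = 5) in CTRL to 39.8 ± 8.38 CPM with the ASO (adjusted p = 0.000174). Srsf4 divided as Rbfox2 did, with its most distal segment at 67.6 ± 5.79 CPM in CTRL and 90.1 ± 9.25 CPM with the ASO (0.41, adjusted p = 0.0277) and the one 3872 bp upstream at −0.80 (adjusted p = 0.0274). That distal segment lies wholly over an exon of Gm12992 on the other strand. Srsf1 was lower on both upstream segments (−0.50 and −0.55) and at 0.41 with no call on the distal one. Hnrnpd was the exception, with its middle segment lower (−1.09, adjusted p = 0.0058) and the outer 2 without a call at 0.16 and −0.041.

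**Figure D4:**
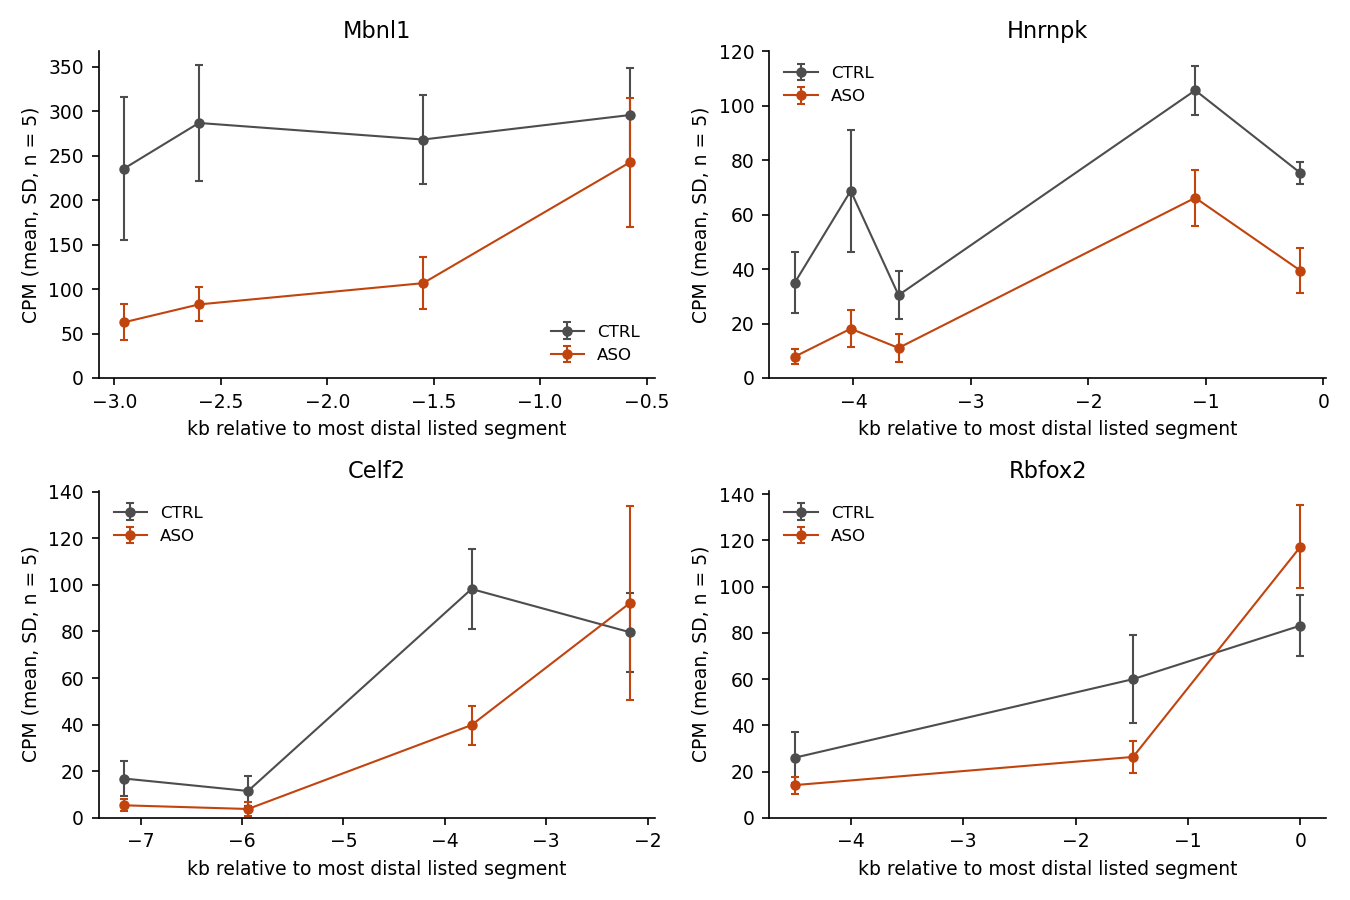
CPM (mean with SD, n = 5, y axis) of each tested segment of Mbnl1, Hnrnpk, Celf2 and Rbfox2 against its distance in kb from the most distal segment listed for the gene (x axis), in CTRL and ASO. The arms draw near toward the distal end in Mbnl1 and stay apart in Hnrnpk. Their means cross in Rbfox2 and in Celf2, where the SD bars overlap at the last segment.

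Of the 91 segments, 29 belong to NMD transcripts, and 12 of these (41.4%) were lower and 1 was higher (median log2 fold change −0.55). The type is that of the transcript whose end gives the segment, and coding mRNA that covers the same bases is counted there too. Those of Hnrnpll, Srsf1 and Srsf7, for example, lie wholly in the 3′UTR of the canonical transcript. Levels of NMD and coding forms are thus not separated. Over all genes, 51% of 2467 tested NMD segments were lower and 6.97% higher, and at 1000 bp or more upstream 67.9% were lower, beside 10 of 18 such segments of the splicing genes. The 62 of protein-coding transcripts had 17 lower (27.4%) and 10 higher (16.1%) calls (median 0.032). Over all genes, 17.8% of 8179 tested segments of protein-coding transcripts were lower and 15.7% higher (median 0.077). The NMD segment called higher was in Srsf3: at chr17:29259210-29259709, inside an intron of the canonical transcript, it went from 25.7 ± 5.28 CPM (SD, n = 5) in CTRL to 43.8 ± 9.11 CPM with the ASO (0.77, SE 0.20, adjusted p = 0.0071). The 2 segments in the 3′UTR of Srsf3 were at 0.30, also of an NMD transcript, and 0.46 with no call. Usage did not pass the test (adjusted p = 0.763). Most segments in introns also lay far upstream: of 20 that lay there 1000 bp or more upstream, 11 were lower and 1 higher (median −0.60), beside 10 lower and none higher of 17 in the 3′UTR at that distance (median −0.50). Introns and 3′UTRs were not separated over all genes, where 54.7% of tested segments at that distance were lower and 4.66% higher.

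Of the 8 genes with a match to the miR-22 seed, 5 were tested, too few for a comparison with the background. None of them was called higher and 1, Hnrnpr, was lower, with a median log2 fold change of −0.50. Celf2 was at −0.52, Sf3b1 at −0.50, Srsf10 at 0.12 and Hnrnpul2 at 0.36, all without a call. The 44 tested genes without a match had a median of 0.033. Over all genes tested the median was −0.029 both with a match (1387 genes, 170 higher and 263 lower) and without (6382 genes, 743 higher and 1090 lower). None of the 8 matches lies in a counted segment of its gene.

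Markers of skeletal muscle were high in every library, as the tissue label says. Muscle fiber markers summed to between 49273 and 97403 CPM in CTRL and between 101227 and 163403 CPM with the ASO, and 3 of 5 tested were higher, Actn3, Tnnc2 and Ckm, while Mb, Mylpf and Tnnt3 were listed at 0. The splicing genes took 0.519% ± 0.0341 of all counts in CTRL (SD, n = 5) and 0.389% ± 0.0174 with the ASO (SD, n = 5). These shares did not overlap between the arms (exact permutation p = 0.00794). Such a share leans on the most highly counted genes, and Mbnl1, the highest, was at −1.31 with total-count scaling. At that scaling 13 of the 49 tested splicing genes were lower and 1 was higher. Their median log2 fold change was then −0.18, beside −0.20 over all genes tested. By the median, the splicing genes thus fell no more than the background. Of the satellite cell markers, 2 of 4 tested, Sdc4 and Cdh15, were higher (sums of 129 to 215 CPM against 228 to 437 CPM, with Calcr at 0). Of the 7 macrophage markers tested, Mrc1 and C1qc were lower, with Adgre1 and Cd163 at 0 (sums of 296 to 1848 CPM in CTRL and 80.5 to 619 CPM with the ASO). Lum of 5 fibroblast markers was lower, with Dcn at 0, and Acta2 of 3 smooth muscle markers was higher. None of the adipocyte, endothelial, Schwann cell or blood markers tested passed. The part of these shifts in the values of the splicing genes was not tested. In muscle sampled whole, fewer cells of a type and less RNA per cell cannot be told apart.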

How the data were processed

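Polyadenylated RNA of GAS was sequenced in 5 ASO and 5 CTRL libraries. Per the labels and methods, the authors trimmed reads with fastp, aligned them with STAR to GRCm39 and counted them with featureCounts of Subread over the last 500 bp of 3′UTRs. The deposited values are unnormalized counts per segment; the strand setting of the counting is not given in the sources used here, so values of genes with exons on both strands of a stretch are uncertain. Another 4 per-sample columns were not used. Segment identifiers were matched to GENCODE M39 (52361 of 52423; the other 62 held 0.0197% of counts) and summed per gene. The test was that of edgeR 4.0.16 under R 4.3.3 (TMM, filterByExpr, quasi-likelihood test, Benjamini-Hochberg, threshold 0.05). CPM values are per TMM-scaled library. Segments were tested in the same way at the gene-level scaling, and segment usage with edgeR's diffSpliceDGE and Simes p-values per gene. Single values were compared by two-sided exact permutation over 252 labellings. The distal index was limited to segments of 200 or more unique bp and to genes with 50 or more counts on each side, and 0.5 was added to each count. DESeq2 1.42.0, limma-voom (limma 3.58.1), other scalings and filters, the replicate number as a block, thinning to 1606491 counts (the smallest total over mapped genes), the most distal counted segment alone and leaving out each library were alternatives. The procedures were tested on simulated data. Python 3.11.15 made figures. The genes and lists were chosen with earlier results of these data known. Named with values in every library were up to 8 called genes in each direction by adjusted p, Hnrnpc as the remaining called gene, Srsf1 (chosen after its values were seen), the Mbnl, Rbfox, Celf1 and Celf2 genes where tested, and the 3 genes without a call with the highest mean CPM (Srsf6, Hnrnpab and Celf2). Up to 4 called genes per list were named by adjusted p; 1 such gene and 1 seed match are not reported here.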

Additional observations from a re-analysis of the deposited data

Results flagged for a closer look

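In groups of 5 libraries, a library was singled out where its gap to the nearest other exceeded the critical share of the group's range in Dixon's test. This was checked in 42 groups, 2 for each of 21 genes, where chance alone flags about 1 in 20, and it held in 3. Mbnl2 was at 36.3 CPM in ASO replicate 2, beside 5.27 to 11.8 CPM in the other 4. Snrpg was at 27.1 CPM in CTRL replicate 1, beside 16.7 to 19.0 CPM in the others. Hnrnpab was at 314 CPM in ASO replicate 3, beside 254 to 269 CPM. Without ASO replicate 2 the log2 fold change of Mbnl2 was −3.12, and it passed the test in every fit that left out a library, as did Snrpg.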

How the results depend on the processing

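Hnrnpk, Rbfox1, Mbnl2, Srsf5 and Hnrnph2 kept their direction and call in every alternative that gave them a value, and no called gene changed direction in any. The fits by segment position covered these genes only in part. Rbfox1 had no value in either of them. Srsf5 had a value only on its single counted segment, 2979 bp upstream. Mbnl2 had one only without far upstream segments, where its segment 999 bp upstream lay just inside the limit. The number of genes higher, 5, was 1 with total counts, 11 with upper quartile, 2 with the replicate block, 1 on the most distal counted segment alone and 1 without segments 1000 bp or more upstream (added after seeing the data). The number lower, 9, was 3 and 5 in these last fits, where 6 of the 9 had no value on the distal segment. The 5 lower without upstream segments include 1 Srsf gene that is not among the 9, as Srsf5 had no value there. Leaving out each library gave 3 to 6 higher, 3 without ASO replicate 3 or CTRL replicate 5, and 6 to 10 lower, 6 without CTRL replicate 4. The median log2 fold change was −0.18 with total counts, 0.087 with upper quartile, 0.099 on the distal segment, 0.11 without upstream segments, and −0.00025 to 0.088 when a library was left out. Of the genes without a call, only Celf2, Hnrnpab, Hnrnpd, Rbfox2, Srsf1, Srsf4 and Srsf6 were followed one by one through the alternatives. Among these, direction turned for Hnrnpd (0.043 in DESeq2, 0.033 with RLE, 0.087 with upper quartile, 0.037 without a filter, −0.027 to 0.082 when a library was left out). It also turned for Rbfox2 (0.26 on the distal segment, 0.30 without upstream segments, −0.19 to 0.0021 when a library was left out) and Srsf1 (0.18 and 0.22 on the distal segment and without upstream segments). With total counts it turned for Hnrnpab (−0.058) and Srsf4 (−0.014). The cause was not tested. Deviations of same-numbered libraries correlated at −0.43 to 0.16, and 1 of 10 libraries correlated best with its own number, so the numbers were not taken to pair them; under the block Hnrnpul1, Sf3a3 and Sf3b5 lost their call. Calls were also lost with total counts for Srsf3, Sf3a3, Sf3b5 and Hnrnpul1, without a filter for Snrpa, Hnrnpr, Hnrnpc and Hnrnpul1, with thinning for Hnrnpr, Hnrnpc and Hnrnpul1, without upstream segments for Mbnl1, Srsf3, Sf3a3, Sf3b5 and Hnrnpul1, and for Hnrnpc in DESeq2 and with RLE and upper quartile. Low counts left 16 of 65 genes untested, 5 of them with at most 1 unique bp.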

Other observations

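Levels can be compared between genes only per length. Per kb of unique segment, Rbfox1 was at 945 CPM per kb in CTRL and 340.2 with the ASO, over only 123 unique bp. Mbnl1 was at 769 and 351 CPM per kb over 1415 bp, and Hnrnpl at 452 and 573 CPM per kb over 157 bp. Hnrnpl was thus the lowest of the 3 in CTRL and the highest with the ASO. The 3 are counted at unlike positions, so this order cannot be told apart from the position of the reads. Rbfox1 and Mbnl1 have 99.3% and 64.8% of their counts 1000 bp or more upstream, and the Hnrnpl segment lies 17 bp upstream. Over all libraries, the median of the 48 genes with at least 100 unique bp was 71.2 CPM per kb, and the lowest was at 12.0.
Segments of Hnrnpa2b1 (Nfe2l3), Hnrnph3 (Rufy2), Hnrnpu (Cox20), Srsf2 (Mettl23) and Srsf9 (Gatc) overlap exons of the gene in parentheses on the other strand. None of these 5 genes had a call with its segments summed. In the test of single segments, the Hnrnph3 segment 3143 bp upstream, which lies wholly over exons of Rufy2, was lower (−0.58, adjusted p = 0.0271).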
